A study of Mus musculus with 6 samples.

Results

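The transcription factors by which fat depots are told apart were followed through 10 genes in mouse inguinal white adipose tissue (IngWAT), the subcutaneous depot of the groin. The 10 genes are *Tbx15*, *Tbx1*, *Lhx8*, *Zic1*, *Shox2*, *Hoxa5*, *Hoxc8*, *Hoxc9*, *Hoxc10* and *En1*, listed by name as homeobox, zinc finger and T-box genes that mark subcutaneous, visceral, brown or beige fat, and all 10 were found among the 46517 genes counted. Both groups were C57Bl6 mice, male by the study's methods, aged 5 to 9 months on chow diet, with 3 RNA samples each. The floxed group carried a floxed *Hdac3* gene, which encodes histone deacetylase 3, and served as the control. The H3atKO group carried the floxed gene and also Adipoq-cre, so that *Hdac3* is removed where the *Adipoq* promoter is active. This promoter is active in adipocytes, and the stromal, vascular and immune cells of the tissue keep the gene. RNA of 2 or 3 mice of the same genotype, 500 ng in all, made up each sample, so the p-values measure the spread between pools and not between mice. In such bulk RNA, fewer cells of a type and less RNA per cell cannot be told apart.

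Fat depots arise from different embryonic territories, and their cells keep a record of position in the form of developmental transcription factors. HOX proteins bind DNA through a homeodomain and are encoded in 4 clusters in which gene order follows the position along the body axis, so that a depot carries a characteristic set of them. T-box factors bind DNA through a different domain. *Tbx15*, *Shox2*, *En1* and *Hoxc10* are known as marks of subcutaneous fat, *Hoxc8* and *Hoxc9* as marks of white against brown fat, *Tbx1* as a mark of beige cells, and *Zic1* and *Lhx8* as marks of classical brown fat. *Hoxa5* is expressed in many depots and has been used as a mark of visceral fat.

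The 4 HOX members share a DNA-contacting helix, and their sequences over it are shown because reads from such like genes have to be told apart before they can be counted. The 51 coding bases of the third helix of the homeodomain were read from GRCm38 on the strand of each gene, and capitals mark the bases that differ from *Hoxa5*.
Hoxa5: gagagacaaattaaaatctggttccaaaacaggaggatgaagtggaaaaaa
Hoxc8: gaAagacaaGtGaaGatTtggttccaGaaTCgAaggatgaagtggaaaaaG
Hoxc9: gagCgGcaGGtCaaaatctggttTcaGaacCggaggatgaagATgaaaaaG
Hoxc10: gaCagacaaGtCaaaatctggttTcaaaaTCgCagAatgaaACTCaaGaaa
*Hoxc8* differed from *Hoxa5* at 10 of these 51 bases, *Hoxc9* at 11 and *Hoxc10* at 13. The *Hoxa5* stretch lies at chr6:52202638-52202688 on the minus strand. Those of *Hoxc10*, *Hoxc9* and *Hoxc8* lie on the plus strand of chromosome 15, at chr15:102970971-102971021, chr15:102984053-102984103 and chr15:102992694-102992744. The whole genes of these 3 HoxC members lie within 27.3 kb (chr15:102966796-102994111). Of the 50-base windows along the exons, 0.552% in *Hoxc8* and 1.29% in *Hoxc9* recur at other loci, and none do in the other 8 members. *Hoxc10* has 91.3% of its exon bases to itself and shares the rest with *Hoxc5* on the same strand. Those shared bases are a limit on its counts.

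Reads counted on genes ranged from 30240920 to 35200685 in floxed and from 23865507 to 29071526 in H3atKO samples. Levels are given as cpm, counts per 1000000 counts of the TMM-scaled library, in which 3 counts correspond to 0.0658 to 0.189 cpm, and this floor accounts for nothing but counting error. *Hdac3* was at 68.9, 80.2 and 65.8 cpm in floxed samples and at 27.4, 21.04 and 12.9 cpm in H3atKO samples, a log2 fold change of -1.83 ± 0.32 (SE; limma voom, adjusted p = 0.0213). The adipocyte marker *Adipoq*, which is not a mark of the depot, was between 1265 and 2873 cpm in the 6 samples. Of 9 visceral fat markers 6 were at 0 in at least 1 sample, the mesothelial genes *Wt1*, *Upk3b* and *Msln* among them. The other 3 passed the filter, and the most abundant of them, *Thbd* and *Gpc4*, are given below. The samples were also ordered by genotype in how their levels followed GC content. Across 14922 genes, as a description, rho (Spearman) of a gene's deviation from its mean with its GC content was 0.808, 0.623 and 0.0575 in floxed and -0.452, -0.517 and -0.72 in H3atKO samples. The effects of GC content and of genotype therefore cannot be told apart. A value with GC content regressed out is given beside each tested member. The share of counts from the mitochondrial genome (6.92% to 12.9% in floxed, 26.9% to 35.3% in H3atKO samples) and the TMM factors (1.295 to 1.37 against 0.663 to 0.921) were separated by genotype as well, and the part of these differences in the members' results was not tested. Scaling by library size alone moved the median log2 fold change of all tested genes from -0.09 to -0.94, so changes under that scaling are given relative to its median.

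Of the 10 members, 9 reached 1 cpm in at least 1 sample and were tested among 14967 genes, and *Zic1* did not. *Shox2* rose and *Hoxc9* fell in H3atKO samples, and the other 7 tested members did not pass the test. That is 1 of 9 tested members called higher, where 9.42% of all tested genes were, and 1 of 9 called lower, where 7.07% were (limma voom). Every H3atKO sample lay above every floxed sample for 1 member, against 23.1% of all tested genes. Every H3atKO sample lay below for 5 members, *Hoxc8*, *Hoxc9*, *Hoxc10*, *Tbx1* and *Lhx8*, against 28.6% of all tested genes. With the labels' replicate number fitted as a block, 1 member was called higher and 4 lower, where 24.8% and 28.7% of all tested genes were. With GC content regressed out, none was called higher and 1 lower (3 members had an unadjusted p under 0.05), where 5.6% and 3.11% of genes were. In edgeR's quasi-likelihood test 1 was called higher and 2 lower (12.8% and 18.4% of genes), in DESeq2 1 and 2 (19.6% and 23.2%), and with library sizes alone none and 5 (2.04% and 37.9%). The median log2 fold change over the 9 tested members was -0.70, beside -0.09 over all tested genes.

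**Figure D1:**
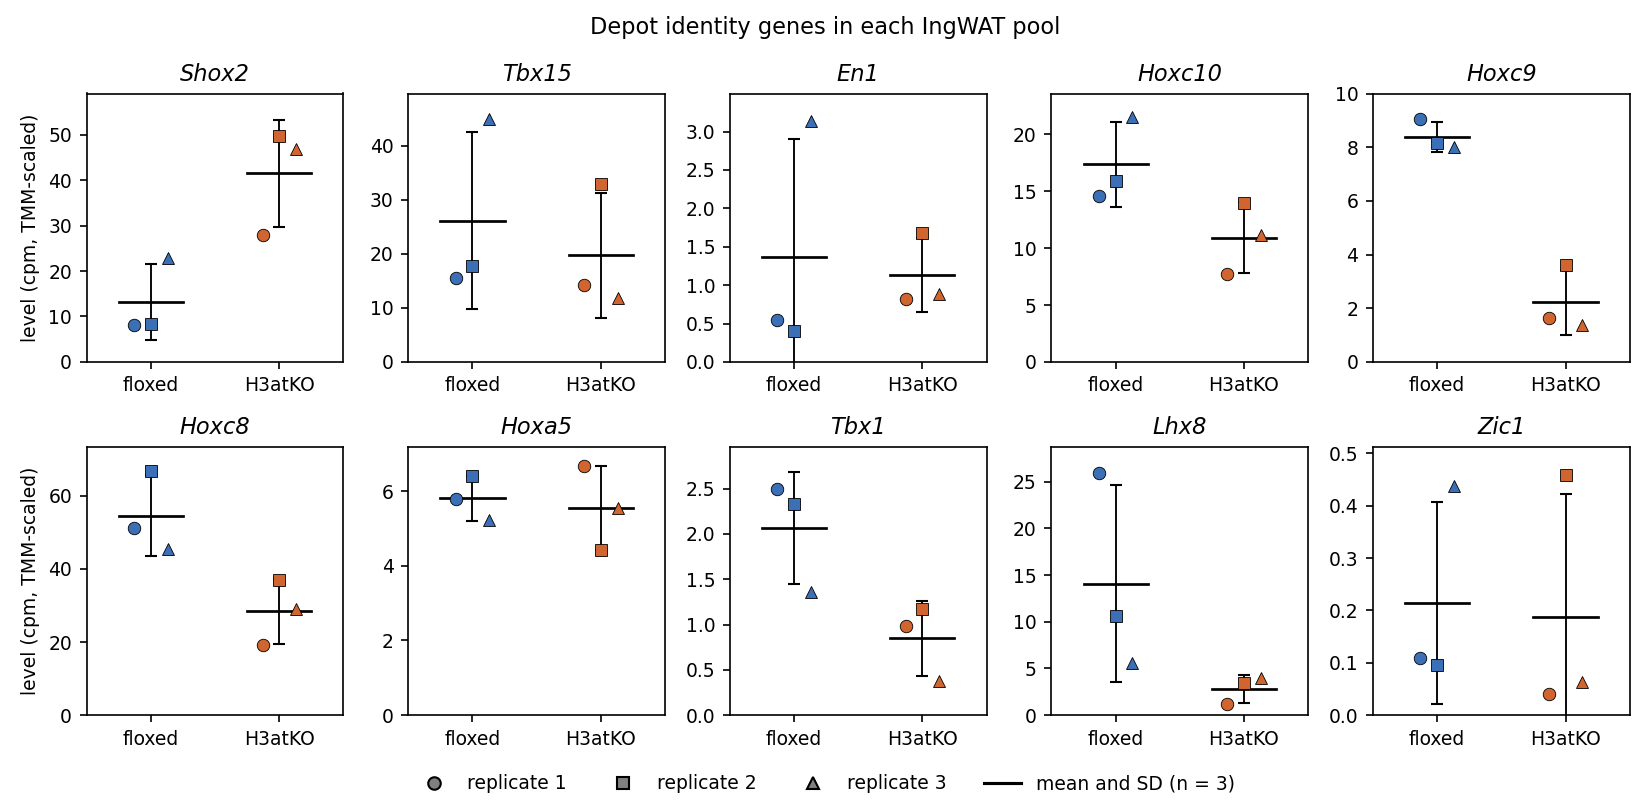
Level of each of the 10 depot identity genes in cpm (y axis, TMM-scaled, linear from 0, each panel on its own scale) in the 3 floxed and 3 H3atKO pools, with symbols for the replicate number, a line for the mean and bars for the SD. *Shox2* is the gene with all H3atKO points above the floxed points, at 28.0 to 49.7 against 8.20 to 22.9 cpm, and *Hoxc9* is at 1.39 to 3.62 against 8.01 to 9.04 cpm.

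Among the marks of subcutaneous fat, *Shox2*, a homeobox gene of limb and heart development (chr3:66971727-66981771, minus strand), was the member that rose. Its level was 8.20, 8.43 and 22.9 cpm in floxed replicates 1 to 3 and 28.0, 49.7 and 46.8 cpm in H3atKO replicates 1 to 3. The groups did not overlap, and floxed replicate 3 was the highest floxed and H3atKO replicate 1 the lowest H3atKO sample. The ratio of the means was 3.15, and the log2 fold change was 1.78 ± 0.46 (SE; limma voom, adjusted p = 0.0427). The size hardly moved with GC content regressed out, at 1.95, while the adjusted p became 0.0522 in limma voom, and with library sizes alone the change was 1.89 relative to the median gene. With the replicate number as a block the adjusted p was 0.00729. The call was kept without floxed replicate 3 (limma voom, adjusted p = 0.00699) and was lost when floxed replicate 1 or 2 or H3atKO replicate 1, 2 or 3 was left out, with adjusted p from 0.0733 to 0.143 and log2 fold changes from 1.51 to 2.05. *Rsrc1*, a splicing factor gene on the opposite strand, shares 153 exon bases with *Shox2*. Its level was 26.0, 29.2 and 42.3 cpm in floxed and 34.4, 46.5 and 57.1 cpm in H3atKO samples, groups that overlap (log2 fold change 0.49; limma voom, adjusted p = 0.243, and 0.0492 with the replicate block). Its direction turned with GC content regressed out, to -0.67 (limma voom, adjusted p = 0.0711).

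*Tbx15*, the T-box gene most used as a subcutaneous mark (chr3:99240381-99354259, plus strand), was at 15.6, 17.7 and 45.0 cpm in floxed and at 14.3, 33.0 and 11.9 cpm in H3atKO samples. The groups overlapped, and 1 sample of each genotype stood above the other 2. The log2 fold change was -0.37 ± 0.55 (SE; limma voom, adjusted p = 0.618), with a 95% interval from -1.65 to 0.92, and it changed sign to 0.11 without floxed replicate 3. It was -0.45 with GC content regressed out (limma voom, adjusted p = 0.588). *En1*, a homeobox gene of the dermomyotome and limb ectoderm (chr1:120602418-120607992, plus strand), was near the low end of detection. It had 25, 17 and 129 counts in floxed and 20, 33 and 14 counts in H3atKO samples, or 0.55, 0.41 and 3.13 against 0.82, 1.68 and 0.88 cpm. The same 2 samples, floxed replicate 3 and H3atKO replicate 2, were the highest of their genotype as for *Tbx15*. The log2 fold change of *En1* was 0.29 ± 0.88 (SE; limma voom, adjusted p = 0.816) with a 95% interval from -1.77 to 2.34, and its sign changed between settings. With GC content regressed out it was 2.11, with a 95% interval from -0.74 to 4.96 (limma voom, adjusted p = 0.271).

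The 2 samples high in *Tbx15* and *En1* were also high in skeletal muscle transcripts. The summed level of 10 muscle markers was 1178, 644 and 2791 cpm in floxed and 412, 3583 and 3.1 cpm in H3atKO samples, with no marker at 0 in any sample. None of the 10 was called in limma voom, edgeR or DESeq2, and 4, 0 and 0 had an unadjusted p under 0.05. *Myh4*, the myosin heavy chain of fast fibres, ranged from 1.01 cpm in H3atKO replicate 3 to 2066 cpm in H3atKO replicate 2. The part of muscle in the *Tbx15* and *En1* levels was not tested.

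The 3 HoxC members were lower in every H3atKO sample than in any floxed sample. *Hoxc8*, the most abundant member in floxed tissue (chr15:102990607-102994111, plus strand), was at 51.3, 66.9 and 45.5 cpm in floxed and at 19.1, 37.0 and 29.0 cpm in H3atKO samples. Its log2 fold change was -0.99 ± 0.32 (SE) and did not pass the test (limma voom, adjusted p = 0.0633). It passed with the replicate block (adjusted p = 0.0132) and with GC content regressed out, where the log2 fold change was -1.49 (adjusted p = 0.0409, limma voom in both), and also without floxed replicate 3 (adjusted p = 0.0342).

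*Hoxc9* (chr15:102976439-102985099, plus strand) was the member that fell. Its level was 9.04, 8.14 and 8.01 cpm in floxed and 1.65, 3.62 and 1.39 cpm in H3atKO samples. The floxed samples lay close together, and the highest H3atKO sample was well below the lowest of them. The floxed mean was 3.79 times the H3atKO mean, and the log2 fold change was -2.03 ± 0.43 (SE; limma voom, adjusted p = 0.0310, and 0.00929 with the replicate block). *Hoxc9* is richer in GC (54.8%) than 78.9% of genes, and with GC content regressed out the log2 fold change was -0.79 (limma voom, adjusted p = 0.260). The call was kept without floxed replicate 3 or H3atKO replicate 2 and was lost without floxed replicate 1 or 2 or H3atKO replicate 1 or 3, with limma voom adjusted p from 0.0755 to 0.117 and log2 fold changes from -2.05 to -1.80.

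*Hoxc10* (chr15:102966796-102971893, plus strand) was at 14.6, 15.9 and 21.6 cpm in floxed and at 7.69, 13.96 and 11.1 cpm in H3atKO samples. The groups came close without overlapping, and the log2 fold change was -0.70 ± 0.35 (SE; limma voom, adjusted p = 0.154), or -0.32 with GC content regressed out (limma voom, adjusted p = 0.571). *Hoxa5*, the member from the HoxA cluster (chr6:52201754-52204587, minus strand), was the most even of the 9 tested members. It was at 5.79, 6.41 and 5.22 cpm in floxed and at 6.67, 4.43 and 5.56 cpm in H3atKO samples. The groups overlapped, and the log2 fold change was -0.07 ± 0.35 (SE; limma voom, adjusted p = 0.888), with a 95% interval from -0.88 to 0.74. It was 0.10 with GC content regressed out (limma voom, adjusted p = 0.808).

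*Tbx1*, the beige mark and a T-box gene of the pharyngeal arches (chr16:18580979-18590671, minus strand), was low in all samples, with 114, 97 and 56 counts in floxed and 24, 23 and 6 counts in H3atKO samples. These counts are 2.50, 2.33 and 1.36 cpm against 0.99, 1.17 and 0.38 cpm, and the groups did not overlap. The log2 fold change was -1.29 ± 0.60 (SE; limma voom, adjusted p = 0.137), and the replicate block brought the adjusted p to 0.0425. The direction of *Tbx1* turned with the GC correction. The gene is richer in GC (62.8%) than 99.3% of genes, and with GC content regressed out its log2 fold change was 1.37 (limma voom, adjusted p = 0.192).

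Of the marks of classical brown fat, *Lhx8* was readily detected and *Zic1* was not. *Lhx8*, a LIM homeobox gene (chr3:154306294-154330659, minus strand), was at 25.9, 10.7 and 5.61 cpm in floxed and at 1.15, 3.41 and 3.98 cpm in H3atKO samples. Floxed replicate 1 was far above the other 2 floxed samples, and the H3atKO samples were all lower than any floxed sample. The floxed mean was 4.93 times the H3atKO mean, and the log2 fold change was -2.27 ± 0.79 (SE). It did not pass the test in limma voom (adjusted p = 0.0737), whereas it did in edgeR's quasi-likelihood test (adjusted p = 0.0428), in DESeq2 (adjusted p = 0.00489), with the replicate block (adjusted p = 0.0407) and without floxed replicate 3 (adjusted p = 0.0148, both limma voom). In limma voom with GC content regressed out the log2 fold change was -1.93 (adjusted p = 0.137).

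The transcript *AI606473* starts on the opposite strand with 161 bases between its first base and that of *Lhx8*, and it was looked up after the *Lhx8* values had been seen. It had 329, 189 and 105 counts in floxed and 12, 36 and 9 counts in H3atKO samples. Its order among the floxed samples matched that of *Lhx8*. Among the H3atKO samples replicate 3 was the highest for *Lhx8*, at 3.98 cpm, and not for *AI606473*, at 0.494, 1.83 and 0.568 cpm. Its log2 fold change was -2.42 ± 0.72 (SE) and did not pass the test (limma voom, adjusted p = 0.0546, and 0.0204 with the replicate block). The 150 bases directly upstream of *Lhx8* lie between the starts of both genes, at chr3:154330660-154330809, and are shown on the minus strand from RefSeq (GRCm38.p6) because they separate the starts of the pair. Capitals mark the CG dinucleotides.
Lhx8 upstream: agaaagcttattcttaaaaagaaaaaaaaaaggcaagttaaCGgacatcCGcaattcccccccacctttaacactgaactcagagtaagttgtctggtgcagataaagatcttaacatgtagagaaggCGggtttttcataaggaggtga
This stretch holds 3 CG dinucleotides. The 250 bases upstream of the RefSeq start of *Lhx8* (chr3:154330561-154330810), which starts further into the gene, are 46% GC and hold 4, beside medians of 52.4% and 6 over 32851 such windows in the mouse table. Neither TATAAA nor CCAAT occurs in the *Lhx8* window on either strand. TATAAA is found in 12.4% and CCAAT in 33.8% of all windows.

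*Zic1*, a zinc finger gene (chr9:91358058-91365810, minus strand), had 5, 4 and 18 counts in floxed and 1, 9 and 1 counts in H3atKO samples. Its level was at most 0.46 cpm, with 5 counts or fewer in 4 of the 6 samples, and a difference was not detectable at this depth. Floxed replicate 3 and H3atKO replicate 2 again held the most counts of their genotype.

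**Figure D2:**
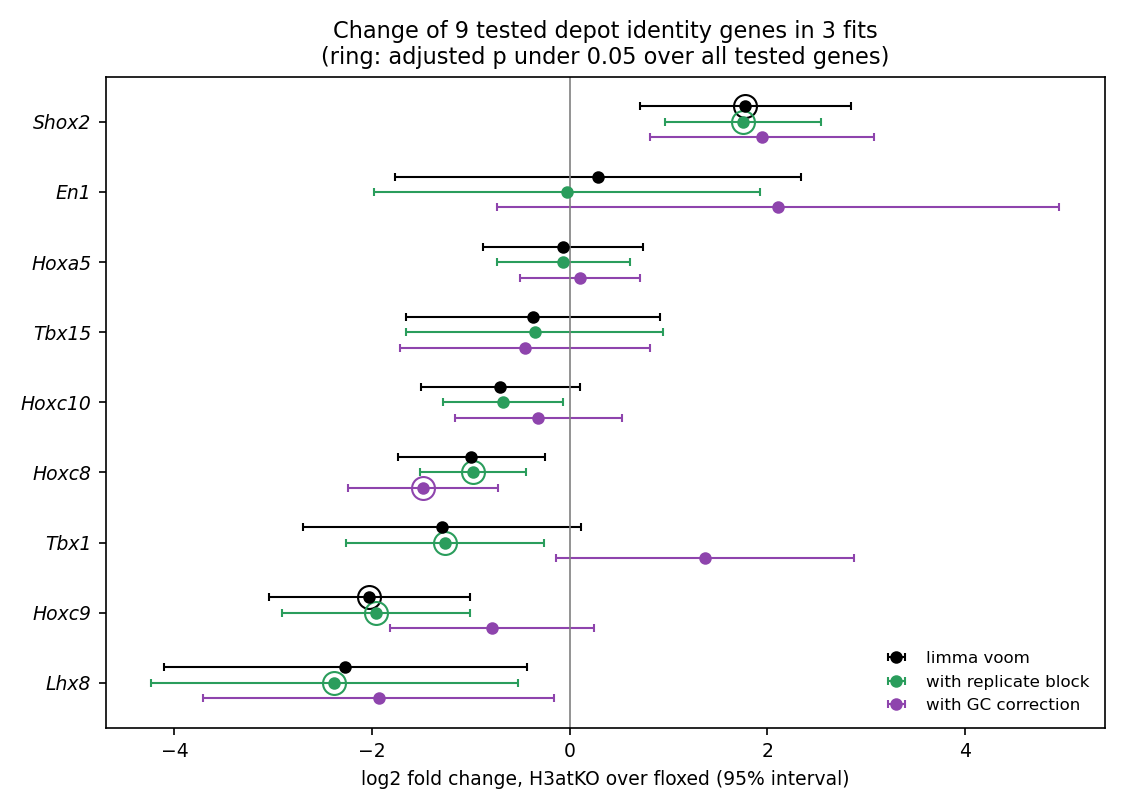
Log2 fold change of H3atKO over floxed (x axis) for the 9 tested members in limma voom, in the fit with the replicate number as a block, and with GC content regressed out. Points are estimates, bars are 95% intervals and rings mark an adjusted p under 0.05 over all tested genes. *Shox2* stays between 1.75 and 1.95 in the 3 fits, while *Tbx1* moves from -1.29 to 1.37 and *Hoxc9* from -2.03 to -0.79 with GC content regressed out.

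Because longer transcripts collect more reads, the levels of the members were ordered per exon length, as cpm per kilobase of exon (rpkm, TMM-scaled). In floxed samples *Hoxc8* led at 19.3 ± 3.90 rpkm (SD, n = 3), followed by *Hoxc10* at 9.09 ± 1.94, *Tbx15* at 6.97 ± 4.38, *Lhx8* at 5.55 ± 4.17, *Shox2* at 3.98 ± 2.54, *Hoxc9* at 3.46 ± 0.229 and *Hoxa5* at 3.09 ± 0.318. *Tbx1* at 0.587 ± 0.175, *En1* at 0.519 ± 0.585 and *Zic1* at 0.0376 ± 0.0339 rpkm closed the order. Neighbours in this order overlapped except for *Hoxc8* over *Hoxc10*, *Hoxa5* over *Tbx1* and *En1* over *Zic1*. The white fat mark *Hoxc8* was thus above 89.6% of tested genes per length, and *Tbx1* above 16.7%.

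In H3atKO samples *Shox2* held the first place per length at 12.5 ± 3.56 rpkm (SD, n = 3), which overlapped *Hoxc8* at 10.02 ± 3.17. *Hoxc10* at 5.72 ± 1.64, *Tbx15* at 5.26 ± 3.08 and *Hoxa5* at 2.96 ± 0.595 rpkm came next. *Lhx8* was at 1.12 ± 0.591, *Hoxc9* at 0.912 ± 0.501, *En1* at 0.430 ± 0.182, *Tbx1* at 0.241 ± 0.118 and *Zic1* at 0.0330 ± 0.0412 rpkm. Only *Hoxa5* over *Lhx8* and *Tbx1* over *Zic1* did not overlap among neighbours in this order.

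**Figure D3:**
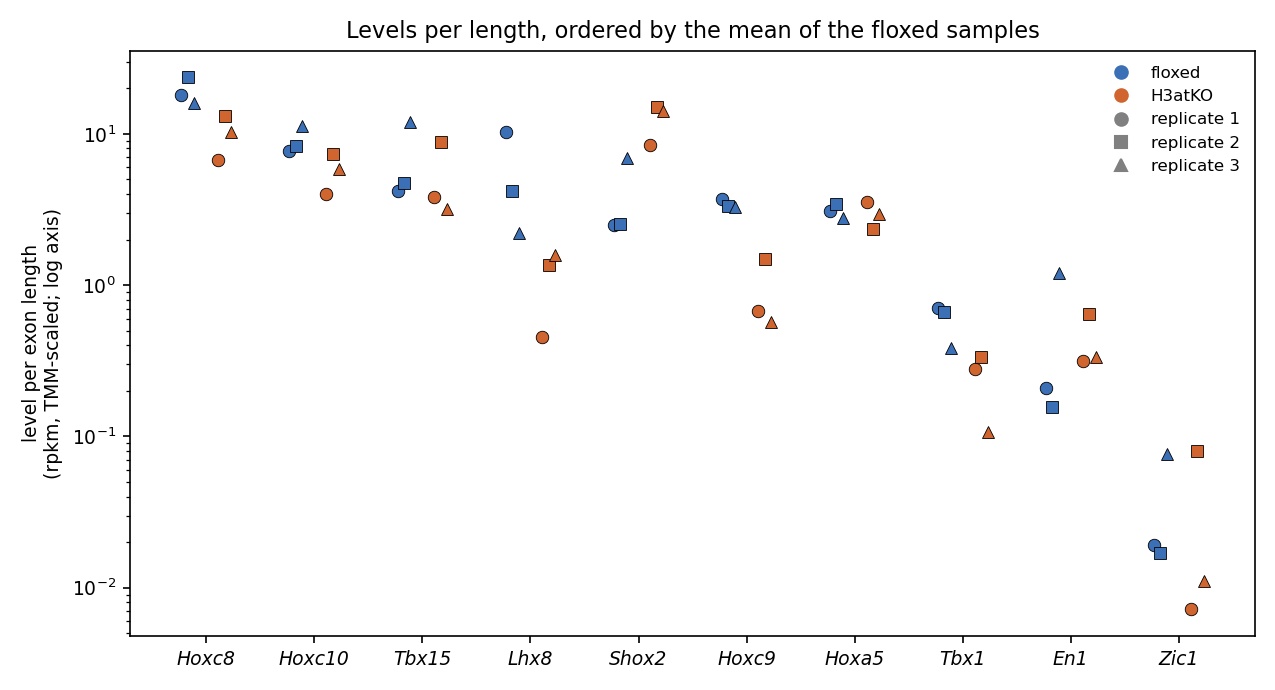
Level per exon length of the 10 members (y axis, rpkm, TMM-scaled, log axis) in each floxed and H3atKO pool, ordered from left to right by the floxed mean, with symbols for the replicate number. *Hoxc8* leads the floxed samples at 16.1 to 23.6 rpkm, and *Shox2* reaches 8.45 to 15.02 rpkm in H3atKO samples against 2.48 to 6.91 in floxed samples.

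Several depot identity genes are known from stromal progenitors as well as adipocytes, and markers of those cells were examined beside the members. The summed level of 12 stromal progenitor markers was 3311, 3156 and 10531 cpm in floxed and 1831, 2193 and 2694 cpm in H3atKO samples. Of these markers 3 of 12 fell and none rose (6 fell with the replicate block), with a median log2 fold change of -1.14 and none at 0 in any sample. Floxed replicate 3 held the highest sum, and without it 5 fell and the median was -0.56. Without floxed replicate 2 none fell, and without H3atKO replicate 1 or 3 there were 2 and 1 that fell. *Pi16*, a mark of an early progenitor of the interstitium, fell from 101, 49.0 and 65.1 to 3.29, 3.21 and 0.947 cpm (limma voom, adjusted p = 0.00946).

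The sum itself was lower in every H3atKO sample, with a difference of -1.12 in mean log2, so dividing by it raises every member by as much in H3atKO relative to floxed samples. Set against that sum, *Shox2* was the member that stood furthest apart between genotypes. It was at 2.48, 2.67 and 2.17 cpm per 1000 cpm of stromal markers in floxed and at 15.3, 22.7 and 17.4 in H3atKO samples. The floxed samples, which had differed in *Shox2* cpm, were close together on this scale, and the log2 difference was 2.90. In an exact two-sided permutation test p was 0.1, the smallest that 3 against 3 samples allow, and over the 9 members compared it does not pass a correction. *En1* was also higher in every H3atKO sample on this scale, at 0.166, 0.129 and 0.297 in floxed and 0.449, 0.767 and 0.328 in H3atKO samples (exact permutation test, p = 0.1). *En1* overlapped in cpm and did not overlap here, which the division brings about. The other 7 overlapped, among them *Hoxc8*, *Hoxc9*, *Hoxc10*, *Tbx1* and *Lhx8*, which did not overlap in cpm. For *Hoxc9*, *Tbx1* and *Lhx8* the overlap rested on floxed replicate 3, which held the highest stromal sum. Floxed replicates 1 and 2 lay above every H3atKO sample for these genes. *Hoxc8* and *Hoxc10* overlapped without floxed replicate 3 too. *Tbx1* was at 0.755, 0.738 and 0.129 in floxed and at 0.539, 0.534 and 0.141 in H3atKO samples. *Lhx8* was at 7.82, 3.38 and 0.533 against 0.629, 1.56 and 1.48. *Hoxc9* was at 2.73, 2.58 and 0.761 in floxed and at 0.899, 1.65 and 0.516 in H3atKO samples. The log2 difference on this scale was 0.14 for *Hoxc8* and 0.43 for *Hoxc10*. It was -0.94 for *Hoxc9*, -0.28 for *Tbx1* and -1.09 for *Lhx8*. The part of stromal cells in the members' levels was not tested beyond these ratios.

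**Figure D4:**
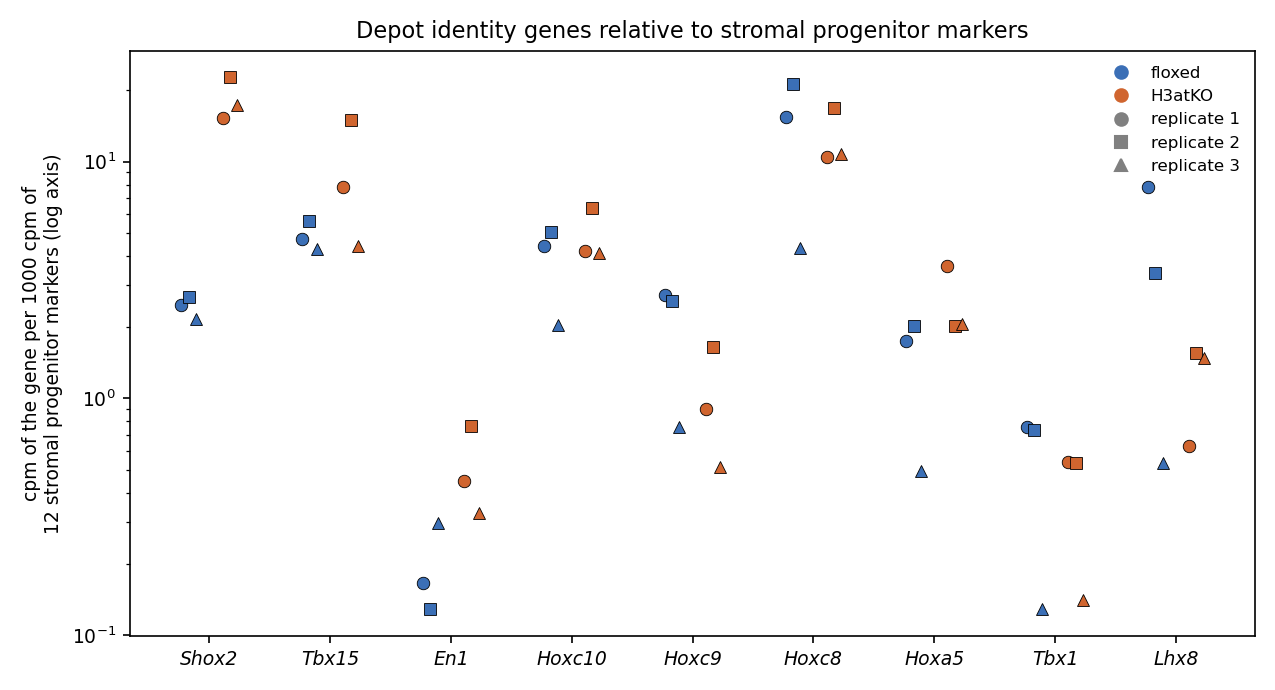
Level of each of the 9 tested members per 1000 cpm of 12 summed stromal progenitor markers (y axis, log axis) in each pool, with symbols for the replicate number. *Shox2* lies at 2.17 to 2.67 in floxed and 15.3 to 22.7 in H3atKO samples, while *Hoxc8* overlaps between 4.32 and 21.2.

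Other cell types differed between pools too. Lymphocyte markers, 10 genes, summed to 153, 6.78 and 6.90 cpm in floxed and to 429, 11.5 and 568 cpm in H3atKO samples, with none at 0 in any sample. Of these 10 genes 0 were called in limma voom or edgeR, 1 and 2 had an unadjusted p under 0.05, and 2 rose in DESeq2 and 4 with the replicate block. Of 8 macrophage markers 4 fell and none rose (5 fell with the replicate block, and none with GC content regressed out, where 1 had an unadjusted p under 0.05 in limma voom), and their sum was 292 to 1186 cpm in floxed and 221 to 373 cpm in H3atKO samples. Endothelial markers fell in 3 of 8 cases (6 with the replicate block), with sums of 663 to 1074 and 443 to 588 cpm. Mammary and skin epithelium markers summed to at most 10.5 cpm, and 6 of 8 were at 0 in at least 1 sample, with none called. Their part in the members' levels was not tested.

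The whole Hox family was read next, since 4 members belong to it. Of 39 Hox genes 28 were tested, 2 of 28 fell, beside 7.07% of all tested genes, and none rose (limma voom), and the median log2 fold change was -0.64. At an unadjusted p under 0.05 there were 7 genes, and 1 rose and 5 fell in edgeR, 2 and 5 in DESeq2 and 1 and 8 with the replicate block. Both genes that fell, *Hoxc5* and *Hoxc9*, are from the HoxC cluster. *Hoxc5* was at 10.5, 10.8 and 5.95 cpm in floxed and 2.39, 3.26 and 3.03 cpm in H3atKO samples (log2 fold change -1.62 ± 0.43, SE; limma voom, adjusted p = 0.0440). All 7 tested HoxC genes, *Hoxc4* to *Hoxc11*, were lower in every H3atKO than in every floxed sample, with a median log2 fold change of -1.16, where 28.6% of all tested genes were lower in this way. The same held for 3 of 9 tested HoxA genes, 4 of 8 HoxB genes and none of 4 HoxD genes, whose medians were -0.32, -0.46 and 0.44. With GC content regressed out the median of the Hox family was 0.09, 2 Hox genes rose and 1 fell (7 rose and 2 fell with the replicate block and the correction combined), and the cluster medians were -0.06, 0.57, -0.79 and 1.66 from HoxA to HoxD. The clusters were not tested against each other.

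**Figure D5:**
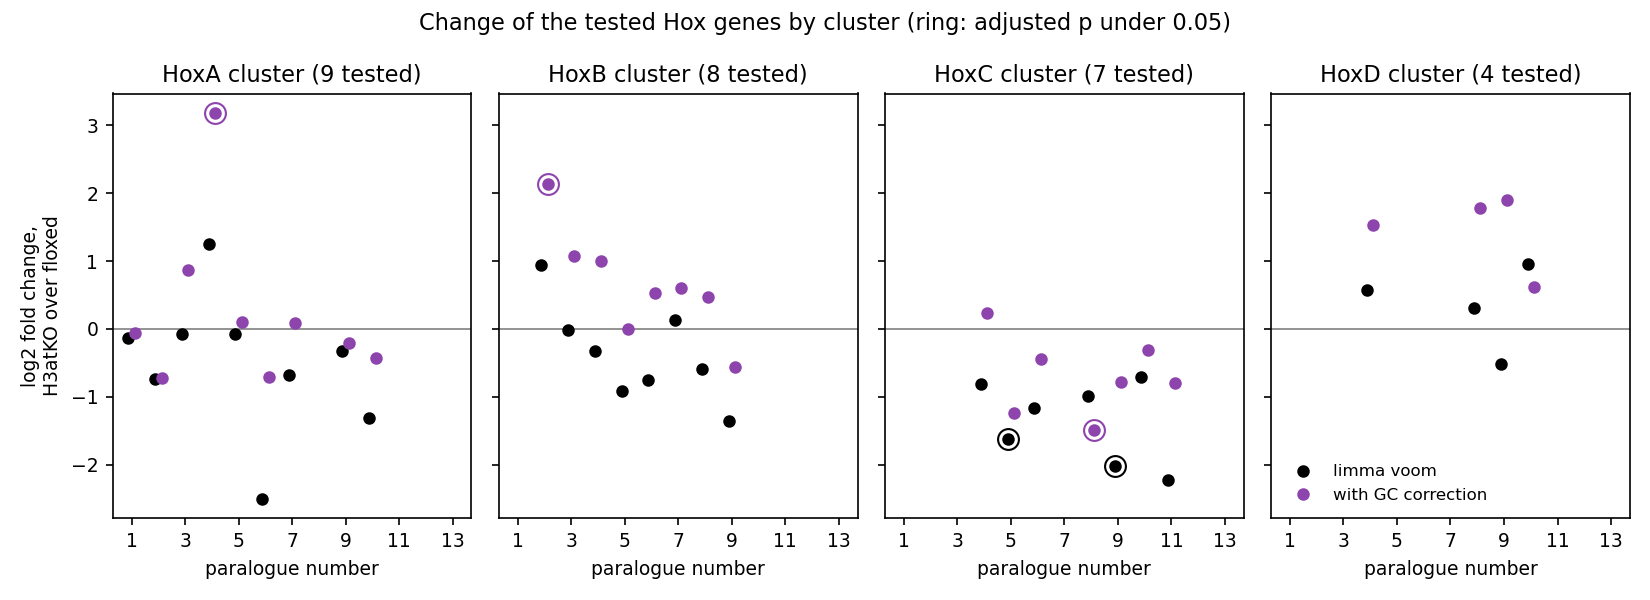
Log2 fold change of H3atKO over floxed (y axis) for the 28 tested Hox genes by paralogue number (x axis) in the 4 clusters, in limma voom and with GC content regressed out. Rings mark an adjusted p under 0.05. The 7 HoxC genes lie below 0 in limma voom, with rings at *Hoxc5* and *Hoxc9*, and 6 of the 7 lie below 0 with GC content regressed out, with a ring at *Hoxc8*.

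HOX proteins bind DNA together with TALE homeodomain partners. Of 9 TALE genes 8 were tested, none passed the test in limma voom and the median log2 fold change was -0.38. At an unadjusted p under 0.05 there were 3, and 1 fell in edgeR, 1 in DESeq2 and 3 with the replicate block. With GC content regressed out 3 of the 8 fell. *Pbx2* was at 36.5, 29.5 and 26.6 cpm in floxed and 22.5, 23.5 and 37.4 cpm in H3atKO samples, and the groups overlapped.

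Polycomb and trithorax proteins keep Hox genes silent or active, and all 28 such genes listed were tested. In limma voom 5 rose, *Bmi1*, *Suz12*, *Kdm6a*, *Mtf2* and *Eed*, and 4 fell, *Ezh1*, *Cbx6*, *Phc1* and *Pcgf2*, with a median log2 fold change of -0.87. Over all tested genes 9.42% rose and 7.07% fell in this fit. *Bmi1*, a Polycomb ring finger gene, was at 41.5, 48.2 and 70.7 cpm in floxed and 116, 128 and 203 cpm in H3atKO samples (limma voom, adjusted p = 0.0312). *Ezh1*, a histone H3 lysine methyltransferase, was at 103, 123 and 63.3 cpm in floxed and 40.6, 36.9 and 26.0 cpm in H3atKO samples (limma voom, adjusted p = 0.0362). With the replicate block 7 rose and 13 fell, beside 24.8% and 28.7% of all tested genes. With GC content regressed out 1 rose and none fell, beside 5.6% and 3.11% of genes. The median was then -0.01, with 9 of 28 at an unadjusted p under 0.05 in limma voom.

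Relatives of the members were few. Among 17 T-box genes 10 were tested, with 1 called higher and none lower (2 and 2 with the replicate block), and *Mga*, a large repressor that carries a T-box, rose from 37.8, 54.1 and 74.9 to 117, 115 and 156 cpm (limma voom, adjusted p = 0.0386, and 0.143 with GC content regressed out). The median of the T-box genes was -0.35 and became 0.67 with GC content regressed out. Among 20 Zic, LIM homeobox, Shox and En genes 5 were tested, with 1 called higher and 1 lower (1 and 2 with the replicate block). Besides *Shox2*, *Lhx6* passed the test and fell from 12.3, 10.8 and 8.62 to 3.21, 1.88 and 2.53 cpm, with a log2 fold change of -2.06 ± 0.39 (SE; limma voom, adjusted p = 0.0246). With GC content regressed out that change was -0.50 (limma voom, adjusted p = 0.422).

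Other marker genes of the depots were compared with the members. Of 9 visceral fat markers 3 were tested, and 0 were called in limma voom, edgeR or DESeq2, with 0 at an unadjusted p under 0.05 in each, while 1 fell with the replicate block. *Thbd*, thrombomodulin, was at 54.7, 60.4 and 88.8 cpm in floxed and 43.0, 39.0 and 61.0 cpm in H3atKO samples (limma voom, adjusted p = 0.203, and 0.0467 with the replicate block), and *Gpc4*, a glypican, at 22.8, 22.01 and 15.4 against 8.56, 14.6 and 13.2 cpm. Of 8 brown fat lineage markers 1 rose and none fell, 2 rose and 4 fell with the replicate block, and 3 rose and 1 fell with GC content regressed out, where the median turned from -0.53 to 0.53. *Mpzl2*, a cell adhesion gene, went from 12.5, 11.4 and 25.3 to 88.5, 61.5 and 84.3 cpm (log2 fold change 2.33 ± 0.35, SE; limma voom, adjusted p = 0.0156). The other brown lineage markers named by abundance were *Ebf3*, at 50.6, 64.8 and 53.7 against 34.1, 53.0 and 60.5 cpm, and *Epsti1*, at 16.5, 5.60 and 28.4 against 94.4, 14.7 and 142 cpm, and both overlapped. *Epsti1* passed with the replicate block (limma voom, adjusted p = 0.00304). Its order in H3atKO samples was that of the summed lymphocyte markers, at 429, 11.5 and 568 cpm. In floxed samples, where those markers summed to 153, 6.78 and 6.90 cpm, the orders differed. The part of lymphocytes in the *Epsti1* level was not tested.

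None of the 6 tested of 7 beige markers passed in limma voom, with 3 at an unadjusted p under 0.05. In edgeR 1 rose, in DESeq2 1 rose and 1 fell, with the replicate block 2 rose and 2 fell, and with GC content regressed out 1 rose. *Slc36a2*, an amino acid transporter, was at 236, 134 and 154 cpm in floxed and 354, 499 and 283 cpm in H3atKO samples without overlap (limma voom, adjusted p = 0.0511, 0.0212 with the replicate block and 0.0181 with GC content regressed out). *Slc27a1*, a fatty acid transporter, was at 852, 299 and 178 against 134, 196 and 68.4 cpm (limma voom, adjusted p = 0.0969, and 0.0212 with the replicate block). Of 10 thermogenic markers of brown and beige adipocytes 3 rose and none fell, 6 rose and 1 fell with the replicate block, and 5 rose and none fell with GC content regressed out. *Elovl3*, a fatty acid elongase, went from 4.21, 0.216 and 0.971 to 721, 283 and 172 cpm (limma voom, adjusted p = 0.0106). *Dio2*, the deiodinase that activates thyroid hormone, went from 0.263, 0.312 and 1.36 to 49.3, 6.83 and 57.9 cpm, and *Ppara*, a nuclear receptor of fatty acid oxidation, from 6.23, 4.59 and 5.83 to 25.6, 30.8 and 14.2 cpm (limma voom, adjusted p = 0.0336 and 0.0248).

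Of 10 mature adipocyte markers 1 fell and none rose, and 5 fell with the replicate block and 5 in DESeq2. The log2 fold change was negative for 9 of the 10. Their median was -1.53, beside -0.09 over all tested genes, and -0.60 with GC content regressed out. The gene that fell in limma voom, *Cfd*, which encodes adipsin, went from 6337, 1968 and 989 to 188, 229 and 70.4 cpm (adjusted p = 0.0223 in limma voom). *Fabp4*, the adipocyte fatty acid binding protein, overlapped at 10331 to 19214 against 12907 to 22032 cpm.

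For each tested member the protein-coding gene with the most similar pattern over the 6 samples was sought among 13585 genes, by the root mean square difference of centred log2 levels. The closest was *Tnfrsf22* for *Hoxa5* (0.0413), *Arfip2* for *Tbx1* (0.0533), *Sgce* for *Hoxc8* (0.0734), *Ndn* for *Hoxc10* (0.0788), *B3galt1* for *Shox2* (0.117), *Rcan2* for *Tbx15* (0.133), *Igdcc4* for *En1* (0.142), *Sparc* for *Hoxc9* (0.148) and *Klhl36* for *Lhx8* (0.310). *Sparc*, a secreted matrix glycoprotein, was at 3480, 2714 and 2488 cpm in floxed and 573, 1225 and 645 cpm in H3atKO samples, the order seen for *Hoxc9* in floxed samples. *B3galt1*, a galactosyltransferase gene, was at 0.943, 1.15 and 3.45 cpm in floxed and 4.86, 7.64 and 6.51 cpm in H3atKO samples, the same order of all 6 samples as *Shox2*. Among the members themselves, *Hoxc8* and *Hoxc10* were closest to each other (0.330), and *Tbx15* and *En1* to each other (0.373). Over 6 samples of 2 genotypes such likeness describes the pattern only.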

How the data were processed

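Poly(A)-selected stranded libraries of the pools were sequenced. Per the labels, the authors used cutadapt 1.3, STAR 2.4.2a and HTSeq 0.6.1 with GRCm38, and they deposited raw read counts per Ensembl gene. The counting's strand setting is not given in the sources used here. The 5 tally rows that name no gene held 37.3% to 44.0% of the alignments in floxed and 50.4% to 51.7% in H3atKO samples and were left out.

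Counts were scaled with TMM (edgeR 4.0.16), genes that reached 1 cpm in any sample were kept, and genotypes were compared with limma voom 3.58.1 in R 4.3.3, following the study's methods, at a Benjamini-Hochberg adjusted p under 0.05 over all 14967 tested genes. edgeR's quasi-likelihood test, DESeq2 1.42.0, other scalings, other filters, a replicate block, a GC correction (robust loess, span 0.3), the block with the GC correction, a fit leaving mitochondrial genome genes out and leaving out each sample were alternatives. The GC correction also removes any genotype effect that follows GC content. In simulated counts limma voom recovered 27.5% of 200 changed genes among 14336 genes and 66.7% of those changed by 3 on the log2 scale, with 2 false calls. The simulated counts held no trend with GC content and no likeness of equal replicate numbers. In the real data the log2 fold changes followed GC content (Spearman rho -0.706), so the number of false calls does not carry over to them.

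The labels give replicate numbers alone and do not say what equal numbers share. Deviations from the genotype means correlated across genes at 0.488, 0.370 and 0.345 for equal numbers and at -0.305 to -0.0683 for unequal ones. This likeness was read from these same data. The correlation of levels with GC content also fell with the replicate number in both genotypes, and its part in the likeness was not tested. Muscle markers were highest in floxed replicate 3 and H3atKO replicate 2, which carry unequal numbers. The block is given where it changes a call, and its p-values rest on treating equal numbers as pairs.

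Symbols, positions and exon lengths came from GENCODE M21 (GRCm38), where 46005 identifiers matched. RefSeq's promoter table had 6 of the 10 members. Named genes were taken from the 10 members, *Hdac3*, the called genes of each list (with more than 6 called, the 3 most abundant per direction, and with fewer than 2, also the 2 most abundant of the list), and the nearest gene in pattern, computed on log2(cpm + 0.5). *Mtf2*, *Eed*, *Pcgf2*, *Rsrc1*, *AI606473* and the visceral genes at 0 were named after their values were seen. The members and lists were chosen with earlier results of these data known. A gene that the rule for named genes gives is not reported here.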

Additional observations from a re-analysis of the deposited data

How the results depend on the processing

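No member was called higher with library sizes alone, with no filter on low counts or with the GC correction, beside 1 in limma voom as reported, and leaving out 1 sample gave 0 to 1. Called lower, beside 1 as reported, were 2 members in edgeR, 2 in DESeq2, 5 with library sizes alone and 4 with the replicate block. Where genes needed 10 counts in each sample, 3 of 8 tested members were called lower. Over all tested genes 1864 were called lower under that filter, beside 1058 as reported. With 1 sample left out, 0 to 3 members were called lower. Leaving out 1 sample gave 1 to 2729 genes called higher and 0 to 3828 called lower over all tested genes, so a call lost in this way is not particular to a member. The direction turned for *Tbx15* without floxed replicate 3 (0.11), for *Tbx1* with the GC correction (1.37) and with block and GC correction combined (1.59), and for *Hoxa5* with the GC correction (0.10), with both combined (0.11) and without floxed replicate 2 (0.0011) or H3atKO replicate 2 (0.036). It turned for *En1* in edgeR (-0.27), in DESeq2 (-0.22), with library sizes alone (-0.54, or 0.41 relative to the median gene under that scaling, where it did not turn), with the block (-0.025) and in leave-one-out fits from -0.26 to 1.17. Over the fits that leave out 1 sample, *Tbx15* ranged from -0.85 to 0.11 and *Hoxa5* from -0.23 to 0.036. The causes were not tested. *Shox2*, *Hoxc8*, *Hoxc9*, *Hoxc10* and *Lhx8* kept their direction under every alternative run. Of 143 alternative values of the members' log2 fold changes, 100 kept side and direction, 15 newly passed the test, 14 no longer passed and 14 reversed. Depth limits *Zic1*, at 1 to 18 counts per sample.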
